A study of Mus musculus with 12 samples.

Results

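The aminoacyl-tRNA synthetases of the mouse heart were followed by their mRNA in hearts that express DN-MCU, a dominant-negative form of the mitochondrial calcium uniporter pore protein, and in WT hearts. Members were taken by gene symbol, as the symbols that name a synthetase by its amino acid letter, and each gene was represented by its brightest probe set on average over the 12 arrays. This gave 34 genes of the 18193 with a probe set of their own, read on 68 of the 45101 probe sets. The symbol sets the class: 16 genes encode cytosolic enzymes, 16 with a symbol ending in 2 encode mitochondrial enzymes, and Gars and Kars encode enzymes that serve both compartments. The glutamyl-prolyl enzyme gene Eprs and the threonyl enzyme gene Tarsl2 are spelled outside this rule and are given among the partner genes. All 34 genes passed the filter on dim probe sets. Vars had log2 signals of only 2.61 to 4.22 and passed through its neonatal arrays.

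RNA came from whole excised hearts of the CD1 strain, at 42 days (adults, all male) or on day 1 after birth (neonates, sex not given). The 4 groups of 3 biological replicates were DN-MCU adults, WT adults, DN-MCU neonates and WT neonates, the WT mice being littermates. No treatment was applied, and the promoter that drives the DN-MCU construct and the number of transgenic lines are not given in the sources used here. Each heart was hybridised to 1 Affymetrix mouse 3′ expression array, and all values are the deposited log2 signals, so a difference of 1 is 2-fold.

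An aminoacyl-tRNA synthetase joins an amino acid to its tRNA, the step that makes the amino acid available to the ribosome. Cytosolic enzymes charge tRNAs for proteins made from nuclear genes, and mitochondrial enzymes, which are nuclear-encoded and imported, charge the tRNAs of the mitochondrial genome for the few respiratory chain subunits made inside the organelle. Most amino acids have a separate gene for each compartment. In mammalian cells many cytosolic synthetase genes are known targets of ATF4, the transcription factor of the integrated stress response, which binds C/EBP-ATF response elements and also drives genes of amino acid synthesis and uptake. Several cytosolic enzymes sit together in the multisynthetase complex on the scaffold proteins Aimp1, Aimp2 and Eef1e1.

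The hearts were those of muscle by their markers: the mean log2 signal of 5 cardiomyocyte genes lay between 14.60 and 14.82 on DN-MCU adult arrays, against 14.83 to 14.97 on WT adult arrays. Of 36 marker genes with a probe set, of cardiomyocytes and 7 other cell types, 31 were bright enough to be tested, and none of the 31 passed in adults. One array stood apart, that of DN-MCU adult replicate 3, whose mean correlation with its own group was 0.931 against 0.957 to 0.993 for the other 11. Several results that rest on it are given with and without it. In whole-heart RNA, fewer cells of a type and less RNA per cell cannot be told apart.

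In adult hearts, mRNAs of 8 of the 16 cytosolic members passed as higher with DN-MCU, and no mitochondrial synthetase passed the test. Of the 34 genes, 9 passed the limma test at an adjusted p under 0.05 and all 9 rose, against 2.82% of all probe sets called higher. They were 8 of the 16 cytosolic genes (Cars, Sars, Aars, Nars, Mars1, Yars, Iars and Lars) and Gars of the 2 dual genes. None of the 34 passed as lower, against 1.95% of all probe sets. Of the 16 mitochondrial genes, 0 passed in either direction, with a lowest adjusted p of 0.114 by limma and 3 at an unadjusted p under 0.05, all 3 lower (Aars2, Hars2 and Iars2; 8.95% of all probe sets). The median log2 difference was 0.64 for cytosolic genes and -0.09 for mitochondrial genes, beside -0.02 for all probe sets tested. Adjusted p-values here and below are from limma, with Benjamini-Hochberg adjustment over all 24176 probe sets kept, and each group has 3 arrays.

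**Figure D1:**
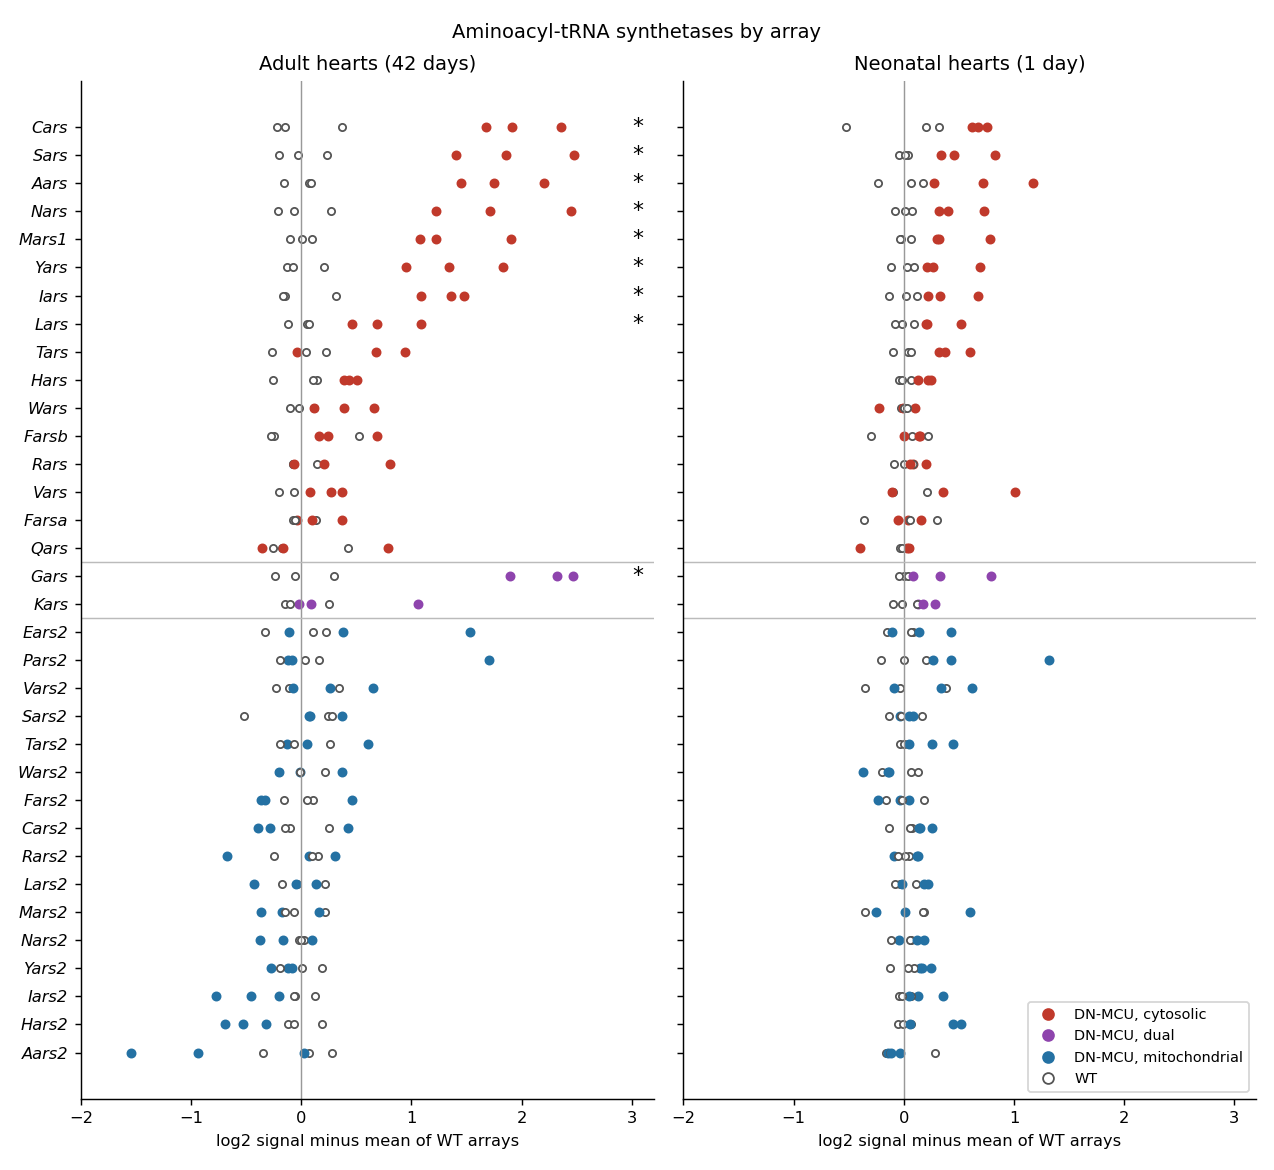
Each point is the log2 signal of 1 array minus the mean of the 3 WT arrays of the same age, for the 34 synthetase genes; filled points are DN-MCU hearts coloured by class, open points WT hearts, and asterisks mark the 9 genes that passed the test in adults. The DN-MCU adult points of those 9 genes lie right of every WT adult point, with differences of 0.74 to 2.22.

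Gars, the glycyl enzyme that serves cytosol and mitochondria from 1 gene, had log2 signals of 12.65, 12.22 and 12.79 on DN-MCU adult arrays, against 10.63, 10.27 and 10.09 on WT adult arrays. Every DN-MCU array lay above every WT array, by a difference of 2.22 (SE 0.22, adjusted p = 0.000308), or 4.67-fold, which was the largest of the 34. Over the 23 alternative settings tried, its difference stayed between 2.10 and 2.39 and passed in all 23. Kars, the lysyl enzyme and the other dual gene, had 9.69, 9.57 and 10.65 in DN-MCU adults, against 9.85, 9.44 and 9.49 in WT adults. Its groups overlapped, with replicate 3 alone high among the DN-MCU arrays, and its difference of 0.38 (95% interval -0.18 to 0.93) did not pass. Without that array the Kars difference was 0.03.

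The cysteinyl enzyme gene Cars had 8.05, 7.81 and 8.49 in DN-MCU adults, against 5.91, 6.51 and 5.99 in WT adults. The seryl enzyme gene Sars had 11.10, 10.64 and 11.71 in DN-MCU adults, against 9.47, 9.03 and 9.20 in WT adults. Neither gene overlapped between groups, and the differences were 1.98 (SE 0.26) and 1.91 (SE 0.25), both with an adjusted p of 0.00177. The alanyl enzyme gene Aars had 10.40, 10.10 and 10.85 in DN-MCU adults, against 8.71, 8.74 and 8.49 in WT adults, a difference of 1.80 (SE 0.25, adjusted p = 0.00246). The asparaginyl enzyme gene Nars had 12.25, 11.51 and 11.02 in DN-MCU adults, against 9.59, 10.07 and 9.73 in WT adults. Its difference was 1.79 (SE 0.27, adjusted p = 0.00386), with the DN-MCU arrays spread more widely (SD 0.62) than the WT arrays (SD 0.25). In linear terms these 4 cytosolic genes were 3.46- to 3.94-fold higher in DN-MCU adults.

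The methionyl enzyme gene Mars1 had 10.96, 10.82 and 11.65 in DN-MCU adults, against 9.84, 9.75 and 9.64 in WT adults, and rose by 1.40 (SE 0.21, adjusted p = 0.00415). The tyrosyl enzyme gene Yars had 7.87, 7.48 and 8.36 in DN-MCU adults, against 6.73, 6.40 and 6.45 in WT adults, and rose by 1.37 (SE 0.22, adjusted p = 0.00571). The isoleucyl enzyme gene Iars had 12.48, 12.09 and 12.37 in DN-MCU adults, against 11.32, 10.86 and 10.84 in WT adults, and rose by 1.31 (SE 0.19, adjusted p = 0.00276). None of the 3 overlapped between groups. The leucyl enzyme gene Lars had 11.73, 11.33 and 11.10 in DN-MCU adults, against 10.52, 10.70 and 10.71 in WT adults. Its difference, 0.74 (SE 0.17, adjusted p = 0.0344), was the smallest of the 9 and the least firm, since it passed in 11 of 23 alternative settings: with the replicate block of the neonates its adjusted p was 0.0952, and without DN-MCU adult replicate 1 its difference was 0.57 (adjusted p = 0.0827). It also missed the threshold without any 1 of the 3 WT adult arrays, the 3 WT neonatal arrays or DN-MCU neonate replicate 1 or 3 (adjusted p up to 0.0942).

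The arrays of the 9 genes did not share an order. DN-MCU adult replicate 3 was the highest of its group for 6 genes (Aars, Cars, Gars, Mars1, Sars and Yars), and replicate 1 for 3 (Iars, Lars and Nars), while replicate 2 was the lowest for 7. With replicate 3 of the DN-MCU adults and replicate 1 of the WT adults left out together, a setting chosen after seeing the data, 12 of 34 genes passed: the 9, Hars at 0.54 (adjusted p = 0.0308), Tars at 0.68 (adjusted p = 0.0188), and Aars2, which fell. The share of all probe sets that passed in that setting is not given, so the higher count cannot be read as particular to the synthetases. The shared spread of 4 groups matters to the calls. With only the 6 adult arrays fitted, Gars alone passed (adjusted p = 0.0297), the other 8 had adjusted p-values of 0.051 to 0.285, and 0.389% of all probe sets were called higher.

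The 8 cytosolic genes that did not pass had differences of 0.09 to 0.53, all above 0. The histidyl enzyme gene Hars had 10.83, 10.76 and 10.72 in DN-MCU adults, against 10.48, 10.44 and 10.07 in WT adults. Its groups did not overlap, and its difference of 0.44 had an adjusted p of 0.0984. On a second, dimmer Hars probe set the groups did overlap, with means of 8.41 in DN-MCU adults and 8.26 in WT adults. The threonyl enzyme gene Tars had 9.43, 9.16 and 8.45 in DN-MCU adults, against 8.22, 8.71 and 8.52 in WT adults. Its DN-MCU replicate 3 lay within the WT range (difference 0.53, adjusted p = 0.26). Without that array the Tars difference was 0.81 and passed. The phenylalanyl enzyme is built from the products of Farsa and Farsb, whose differences were 0.14 (95% interval -0.26 to 0.54) and 0.36 (95% interval -0.16 to 0.89). Qars, the glutaminyl enzyme gene, had the smallest difference, 0.09 (95% interval -0.55 to 0.73), which ends just under the Lars difference. Wars, Rars and Vars, for the tryptophanyl, arginyl and valyl enzymes, had differences of 0.39, 0.32 and 0.24. Counting arrays alone, 10 of the 34 genes (29.4%) had every DN-MCU adult array above every WT adult array, against 8.7% of all probe sets.

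The genes that rose came from both structural families of synthetases. They were 5 of the 9 class I enzymes and 4 of the 9 class II enzymes, the 2 unrelated folds of this family, among the 18 cytosolic and dual genes. Of the 6 genes for subunits of the multisynthetase complex 3 rose, with a median of 0.56, against 6 of the 12 other genes, with a median of 0.95; this is a description of the members. Eprs, the joined glutamyl and prolyl enzyme of that complex, had 12.04, 11.64 and 10.87 in DN-MCU adults, against 10.00, 9.95 and 10.07 in WT adults, and rose by 1.51 (SE 0.24, adjusted p = 0.00569). The scaffold genes did not pass, with differences of 0.18 for Aimp1, 0.50 for Aimp2 and 0.64 for Eef1e1 (adjusted p = 0.0972).

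The mitochondrial genes had differences of -0.82 to 0.60 in adults, and 6 of 16 were above 0, against 47% of all probe sets. Hars2, for the histidyl enzyme, had 6.93, 7.14 and 6.77 in DN-MCU adults, against 7.34, 7.65 and 7.39 in WT adults. Iars2, for the isoleucyl enzyme, had 9.74, 9.99 and 9.42 in DN-MCU adults, against 10.14, 10.13 and 10.32 in WT adults. These were the 2 genes with every DN-MCU adult array below every WT adult array, 5.88% of the 34 against 8.46% of all probe sets, and neither passed (differences -0.51, adjusted p = 0.114, and -0.48, adjusted p = 0.135), although Iars2 did without DN-MCU adult replicate 2 (-0.61, adjusted p = 0.0455). Aars2, for the alanyl enzyme, had 5.36, 4.75 and 6.32 in DN-MCU adults, against 6.58, 6.37 and 5.95 in WT adults. Its groups overlapped through DN-MCU replicate 3, and its difference of -0.82 did not pass (adjusted p = 0.22), whereas without that array it was -1.24 (adjusted p = 0.0103). The intervals of Nars2 (-0.46 to 0.17) and Yars2 (-0.46 to 0.14), both at 95%, lay within 0.46 of 0. Ears2 and Pars2 had differences of 0.60 and 0.50 in which replicate 3 of the DN-MCU adults was high. On that array Pars2 read 5.93, against 4.14 and 4.10 on the other DN-MCU adult arrays and 4.02 to 4.38 in WT adults. Without it the differences of Ears2 and Pars2 were 0.13 and -0.10.

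**Figure D2:**
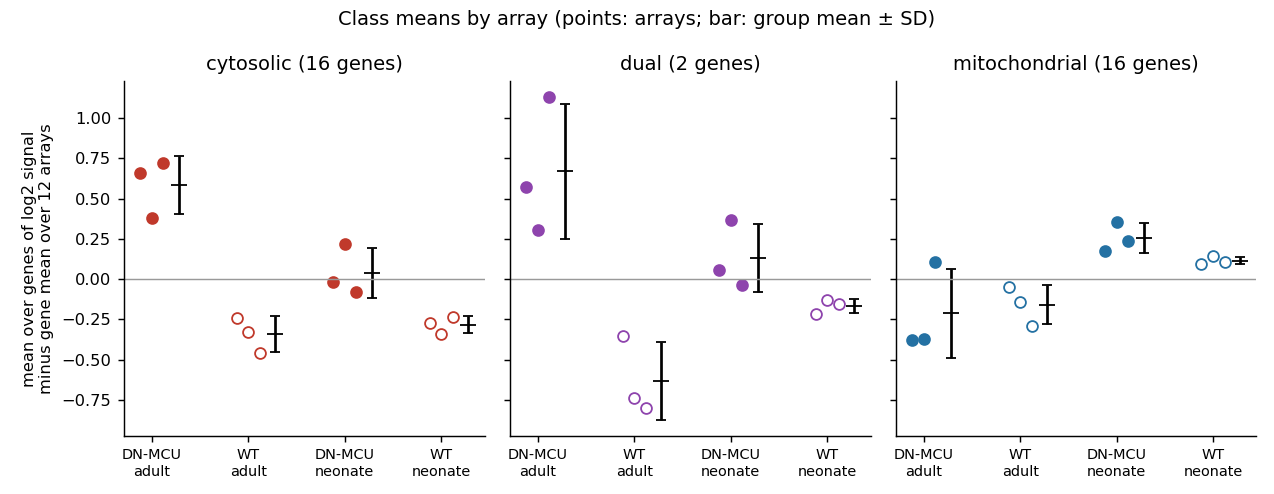
For each array, the mean over the genes of a class of the log2 signal minus the gene's mean over the 12 arrays; points are arrays in order of replicate, and bars the group mean ± SD. Cytosolic genes averaged 0.58 ± 0.18 in DN-MCU adults and -0.34 ± 0.11 in WT adults, and mitochondrial genes -0.21 ± 0.28 in DN-MCU adults and -0.16 ± 0.12 in WT adults (SD, n = 3 each). By array, mitochondrial genes averaged -0.38, -0.37 and 0.11 in DN-MCU adults, against -0.05, -0.14 and -0.29 in WT adults. DN-MCU adult replicates 1 and 2 thus lay below every WT adult array and replicate 3 above.

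For 13 amino acids both compartments have a gene of their own among the members, so the 2 genes can be set against each other on the same array. This comparison was chosen after the separate values had been seen. The gap, cytosolic minus mitochondrial log2 signal, was wider in DN-MCU adults than in WT adults for 12 of the 13 pairs, and 8 of 13 passed in the same limma fit. The largest was Aars over Aars2, where the gap differed by 2.62 (SE 0.26, adjusted p = 0.000336). Cars over Cars2 followed with 2.06 (adjusted p = 0.000944), then Nars over Nars2 with 1.94, Iars over Iars2 with 1.78, Sars over Sars2 with 1.74, and Yars over Yars2 and Mars1 over Mars2 with 1.53 each (adjusted p from 0.00258 to 0.00894). Hars over Hars2 passed with 0.96 (SE 0.16, adjusted p = 0.00674), although neither gene passed alone. These 2 genes are neighbours in the genome by the RefSeq table. With the mean of all probe sets of a gene, the gap of Hars over Hars2 was 0.78 (adjusted p = 0.0194). In each of the other passing pairs the cytosolic gene also passed alone, so those gaps largely repeat its call. No share over other gene pairs is given beside these counts. Lars over Lars2, at 0.86, did not pass (adjusted p = 0.119), and Rars, Tars, Wars and Vars had gaps of -0.04 to 0.42. A gap says that the 2 genes moved unequally, not that either stayed constant, and with only the adult arrays fitted 2 of the 8 passed (Aars over Aars2 and Mars1 over Mars2).

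**Figure D3:**
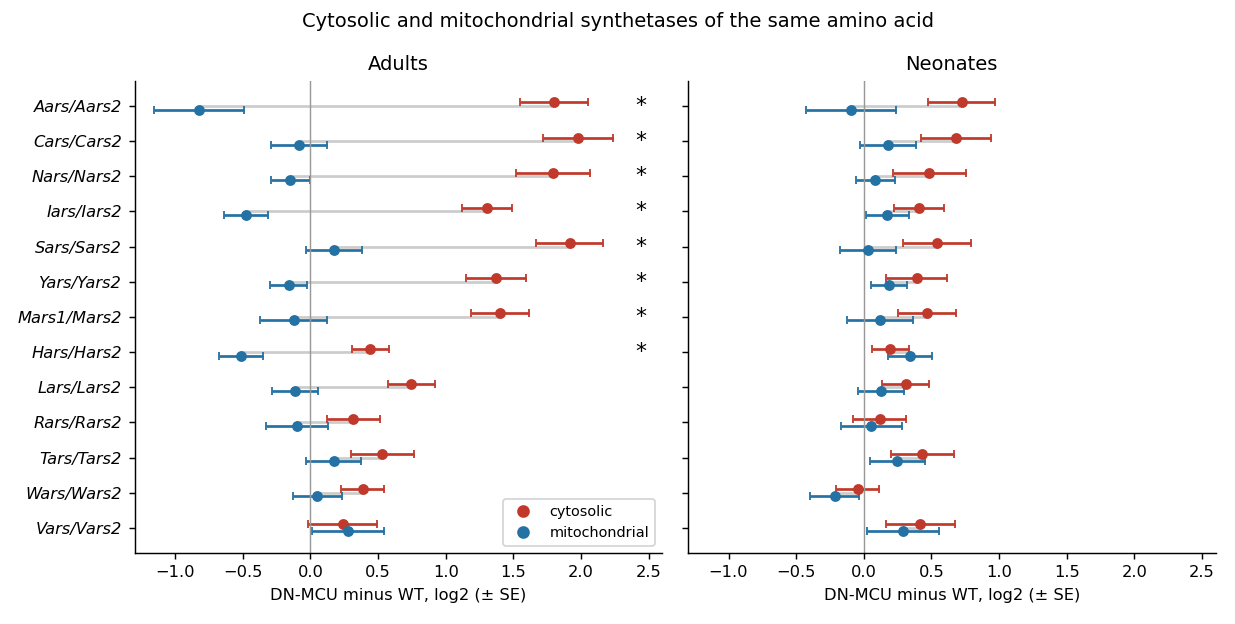
DN-MCU minus WT log2 difference ± SE for the cytosolic and mitochondrial gene of each of 13 amino acids, in adults and in neonates; asterisks mark pairs whose gap passed the test. In adults 8 pairs are marked, from Aars/Aars2 at 2.62 to Hars/Hars2 at 0.96; in neonates 0 are.

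Other genes of tRNA charging and of mitochondrial translation were read beside the synthetases. Of 15 partner genes, 2 rose in adults, 1 fell and the median was -0.02: Eprs, above, Dtd1, which removes D-amino acids from tRNA, by 0.64 (adjusted p = 0.0306), and Prorsd1, which fell by 0.72 (adjusted p = 0.0359). With the replicate block of the neonates Eprs still passed (adjusted p = 0.0243), and Dtd1 and Prorsd1 did not (adjusted p = 0.0926 and 0.1). Tarsl2 went the other way from Eprs. Every DN-MCU adult array of Tarsl2 lay below every WT adult array, with group means of 8.60 and 9.43. Its difference of -0.82 did not pass (adjusted p = 0.0947). Genes that help charge mitochondrial tRNAs by the indirect route, Gatb, Gatc and Qrsl1, had differences of 0.19, -0.23 and -0.33, and Mtfmt, which formylates the mitochondrial initiator tRNA, -0.02; none passed. Of 9 mitochondrial translation factor genes 0 passed (median -0.36; Gfm1, an elongation factor, was at -0.36 with an unadjusted p of 0.02573 and Mtif2, an initiation factor, at -1.07 with 0.01979). Of 5 cytosolic elongation factor genes 1 rose, Eef1a1, which delivers charged tRNA to the ribosome, by 0.78 (adjusted p = 0.00818).

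The amino acid response was read on a list of 29 known ATF4-linked genes. Of these, 21 rose and 0 fell in adults, with a median of 1.78. Of all probe sets, 2.82% were called higher and 1.95% lower. The list was chosen with earlier results of these data known, so its count is a description. Asns, which makes asparagine, had 11.95, 11.42 and 12.21 in DN-MCU adults, against 5.83, 4.91 and 5.20 in WT adults, a wider separation than that of any of the 34 synthetases. Atf4 itself had 11.91, 11.70 and 11.42 in DN-MCU adults, against 9.81, 10.03 and 9.94 in WT adults, a difference of 1.75 (adjusted p = 0.00205). Atf4, Nars and Lars had the same order of DN-MCU adult arrays, replicate 1 highest and replicate 3 lowest. By contrast, 6 of the 9 synthetases that rose, Gars among them, were highest on replicate 3. An order of 3 arrays is only a description.

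Promoters were read for the sequence that ATF4 is known to use. RefSeq windows of 300 bases, 250 before to 50 after the start (build GRCm38.p6), were given for 25 of the 34 genes, and for Cars, Hars, Hars2, Lars, Nars, Pars2, Rars, Vars and Wars none was used. The core of the C/EBP-ATF response element, TGATGNAA, was searched on both strands (TTNCATCA on the other strand). It stood in 5 of the 11 cytosolic and dual promoters (Aars, Gars, Iars, Tars and Yars), in 0 of the 14 mitochondrial promoters, and in 4.51% of the promoters of all 27025 genes. Among genes with a promoter, that was 4 of the 6 that rose and 1 of the 5 that did not pass. The stricter TGATGCAA stood in 4 of the 11, all but Gars, against 1.03% of all genes. A match is a description of the letters, not a bound site, and Sars and Mars1 rose with no match in the window. The stretches below run from 130 bases before the start to 20 after it, 5′ to 3′ on the gene's strand, with matches in capitals. They show the 4 genes that rose and hold a match, then Tars, which holds one and did not pass, Sars, which rose without one, and Aars2 as the mitochondrial partner of Aars.
Gars: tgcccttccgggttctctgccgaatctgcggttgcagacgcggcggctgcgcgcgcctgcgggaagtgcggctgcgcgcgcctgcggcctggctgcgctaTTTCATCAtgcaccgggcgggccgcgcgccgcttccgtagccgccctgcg
Aars: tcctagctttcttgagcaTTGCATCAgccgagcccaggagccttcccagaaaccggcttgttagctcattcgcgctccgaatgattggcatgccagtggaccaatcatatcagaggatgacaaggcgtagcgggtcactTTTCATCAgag
Iars: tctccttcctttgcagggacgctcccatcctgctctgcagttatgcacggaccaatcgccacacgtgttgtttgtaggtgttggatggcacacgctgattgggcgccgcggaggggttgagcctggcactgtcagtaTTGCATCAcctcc
Yars: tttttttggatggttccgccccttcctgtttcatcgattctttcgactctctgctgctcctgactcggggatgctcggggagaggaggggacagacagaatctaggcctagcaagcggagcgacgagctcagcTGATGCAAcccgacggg
Tars: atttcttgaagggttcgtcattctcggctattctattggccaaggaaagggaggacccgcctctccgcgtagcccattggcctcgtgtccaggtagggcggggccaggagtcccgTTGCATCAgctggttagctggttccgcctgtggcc
Sars: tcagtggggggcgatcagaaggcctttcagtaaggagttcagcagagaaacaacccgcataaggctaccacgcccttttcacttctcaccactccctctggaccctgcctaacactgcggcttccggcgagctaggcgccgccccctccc
Aars2: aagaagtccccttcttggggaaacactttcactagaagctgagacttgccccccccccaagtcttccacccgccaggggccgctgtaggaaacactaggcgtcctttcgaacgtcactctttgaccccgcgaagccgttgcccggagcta
They lie at chr6:55037871-55038020, plus strand (Gars); chr8:111033712-111033861, plus strand (Aars); chr13:49682000-49682149, plus strand (Iars). The others are chr4:129189773-129189922, plus strand (Yars), chr15:11399639-11399788, minus strand (Tars), chr3:108445240-108445389, minus strand (Sars) and chr17:45506702-45506851, plus strand (Aars2). The Gars match begins 30 bases before the start and the Tars match 15 bases before it. Aars holds a match on each side of its start, the first 112 bases before it, and the matches of Iars and Yars lie just after the start.

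In neonatal hearts, 0 of 34 synthetases passed the test by limma (lowest adjusted p = 1), where 0.0165% of all probe sets were called, 4 in number. At an unadjusted p under 0.05 there were 2, Aars and Cars, both higher, against 1.32% of all probe sets. The differences nevertheless leaned one way: 29 of 34 were above 0, against 53.2% of all probe sets, and the median was 0.40 for cytosolic genes and 0.14 for mitochondrial genes, beside 0.01 for all. In 16 of the 34 genes (47.1%) every DN-MCU neonatal array lay above every WT neonatal array, against 7.51% of all probe sets, and in 0 genes every array lay below, against 5.13%. The 16 genes were 12 of the 18 cytosolic and dual genes (66.7%) and 4 of the 16 mitochondrial genes (25%), Cars2, Pars2, Tars2 and Yars2.

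Aars had 9.45, 9.91 and 9.01 in DN-MCU neonates, against 8.49, 8.91 and 8.80 in WT neonates. Its difference was 0.72 (SE 0.25, unadjusted p = 0.0153), the largest in neonates. Cars had 6.31, 6.46 and 6.37 in DN-MCU neonates, against 6.02, 5.18 and 5.90 in WT neonates, a difference of 0.68 (SE 0.26, unadjusted p = 0.02286) to which the low WT replicate 2 contributes. Iars had 11.27, 11.72 and 11.37 in DN-MCU neonates, against 10.91, 11.16 and 11.06 in WT neonates, a difference of 0.41. Gars had 11.39, 11.85 and 11.15 in DN-MCU neonates, against 11.07, 11.02 and 11.10 in WT neonates, a difference of 0.40 with replicate 3 barely above the WT arrays. Wars2, for the mitochondrial tryptophanyl enzyme, had the lowest difference, -0.22.

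The 9 genes that rose in adults were among the 16: all 9 had DN-MCU neonatal arrays above the WT neonatal arrays, with differences of 0.31 to 0.72 and a median of 0.47, against 7 of the other 25 genes, with a median of 0.13. In all 9, DN-MCU neonate replicate 2 was the highest array. Without it the cytosolic median was 0.22 in place of 0.40. The same array had the highest Asns, 10.88 against 9.79 and 9.14 in the other DN-MCU neonates and 7.14 to 7.26 in WT neonates, and the highest Atf4, 11.10 against 10.32 and 10.12, and 9.78 to 9.84 in WT neonates. Of the 29 amino acid response genes 1 passed in neonates, Chac1, which breaks down glutathione, with a difference of 4.55 (adjusted p = 0.04, and 0.0791 with the replicate block of the neonates); the median was 0.53.

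Other measures moved with the neonatal groups. The mean of 5 epicardial markers was 7.07, 7.16 and 6.79 in DN-MCU neonates, against 7.61, 8.24 and 7.52 in WT neonates, and that of 3 erythroid markers 5.78, 5.94 and 6.23 in DN-MCU neonates, against 6.66, 7.10 and 6.27 in WT neonates. Macrophage markers, 5 genes, averaged 7.14, 7.24 and 6.89 in DN-MCU neonates, against 7.29, 7.39 and 7.29 in WT neonates. None of these 3 overlapped between the groups. The 3′ minus 5′ signal of the actin control, a measure of RNA integrity and labelling, was 1.43, 1.56 and 1.28 in DN-MCU neonates, against 1.07, 1.50 and 1.03 in WT neonates, and its groups overlapped. The same measure of GAPDH was -0.40, -0.20 and -0.53 in DN-MCU neonates, against -0.51, -0.18 and -0.49 in WT neonates, and overlapped too. Their part in the neonatal differences was not tested. In adults that actin measure was 0.77 to 0.90 in DN-MCU hearts and 0.79 to 0.89 in WT hearts. Of the adult marker means, those of cardiomyocytes, given above, and of endothelial cells did not overlap between groups; the endothelial mean was 8.40, 8.21 and 8.50 in DN-MCU adults, against 8.57, 8.66 and 8.75 in WT adults. Adipocyte markers were low on the array of DN-MCU adult replicate 3, at 7.62 against 8.90 to 9.42 on the other adult arrays, and epicardial markers were high on that of WT adult replicate 1, at 6.81 against 4.76 to 5.29. The 8 adult differences other than that of Lars lay between 1.20 and 2.25 without these 2 arrays.

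**Figure D4:**
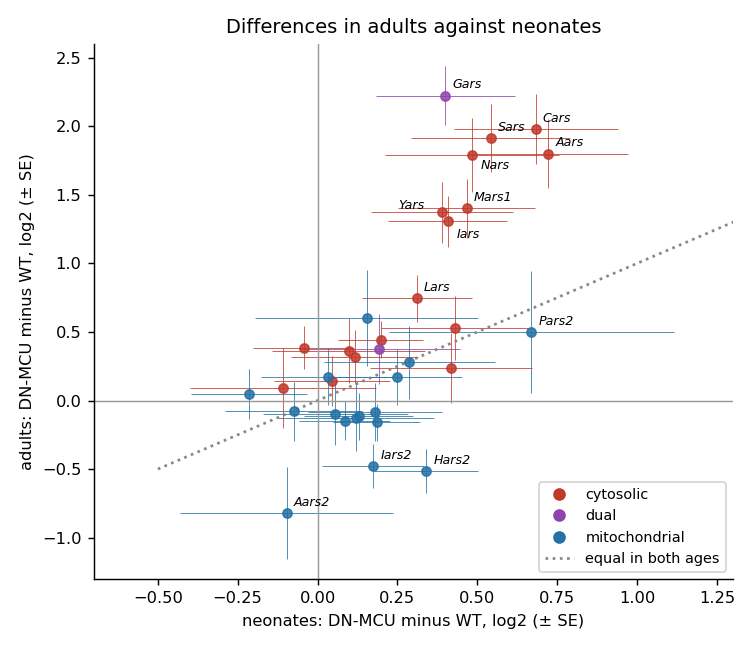
DN-MCU minus WT log2 difference ± SE in adults (vertical) against neonates (horizontal) for 34 synthetases; the dotted line marks equal differences. The 9 genes that rose in adults lie above the line, Gars farthest at 2.22 in adults and 0.40 in neonates, while the mitochondrial Aars2, Iars2 and Hars2 lie below it.

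The difference between the ages was tested as an interaction, the adult minus the neonatal DN-MCU difference. Gars passed, at 1.82 (SE 0.31, adjusted p = 0.0257), 1 of 34 genes against 0.786% of all probe sets. The call did not hold with the replicate block of the neonates (adjusted p = 0.0805) or when any of 8 single arrays was left out: DN-MCU adult 1, WT adult 2 or 3, DN-MCU neonate 1 or 3, or WT neonate 1, 2 or 3 (adjusted p = 0.0564 to 0.0948). Its size moved little, between 1.67 and 2.02 with each array left out. Sars followed at 1.37 (adjusted p = 0.141), and a second probe set of Sars gave 1.72 (adjusted p = 0.0353). All 9 genes that rose in adults had an interaction above 0, from 0.43 to 1.82, and 8 of them had an unadjusted p under 0.05, but in the unweighted fit without a block only Gars passed. These 9 were picked by their adult difference, which is itself a term of the interaction. Their signs and unadjusted p-values are thus tilted by that choice and are only a description. The share of all probe sets at that unadjusted p is not given. With array weights 7 of 34 passed: Gars, Iars, Nars, Sars and Yars above 0, and Aars2 (-1.11, adjusted p = 0.0469) and Hars2 (-0.93, adjusted p = 0.0331) below 0. For array weights, too, the share of all probe sets is not given. Without weights, Sars passed without DN-MCU adult replicate 2 (1.63, adjusted p = 0.0349), and Nars without DN-MCU adult replicate 3 (1.60, adjusted p = 0.0273). Hars2 had the lowest interaction, -0.86 (adjusted p = 0.169), at -0.51 in adults and 0.34 in neonates. For the pairs, 0 of 13 gaps passed the interaction (lowest adjusted p = 0.0589, Aars over Aars2, with Hars over Hars2 at 0.061).

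Across genes, the adult and neonatal differences ran together among the 18 cytosolic and dual genes (Pearson 0.80, Spearman 0.78) and less so among the 16 mitochondrial genes (Pearson 0.36, Spearman 0.15). The ages share no arrays, but genes are not independent replicates, and these are descriptions.

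Age was compared in WT hearts. Between WT adults and WT neonates 9 of 34 genes passed (26.5%), against 45.1% of all probe sets, 3 of them higher in adults (20.6% of all probe sets) and 6 lower (24.4%), with no test of the shares; the count was 11 with array weights. The median was -0.09 for cytosolic genes and -0.18 for mitochondrial genes, beside -0.07 for all; quantile normalization turned the cytosolic median to 0.10, and a stricter filter on dim probe sets the mitochondrial one to 0.0042. Adults were male and the sex of the neonates is not given, so age and sex cannot be told apart.

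Ears2, the mitochondrial glutamyl enzyme, had by far the largest difference. It had log2 signals of 5.82, 5.27 and 5.70 in WT adults, against 9.35, 9.57 and 9.57 in WT neonates, and the DN-MCU hearts showed the same gulf, with 5.97, 5.49 and 7.13 in adults, against 9.39, 9.93 and 9.64 in neonates. In WT hearts the level was lower in adults by 14.9-fold (log2 difference -3.90, SE 0.35, adjusted p = 9.44e-06). All 4 probe sets of Ears2 were lower in WT adults, with differences of -3.90, -3.29, -2.44 and -1.06. No other synthetase differed by more than 0.96 between the WT ages.

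**Figure D5:**
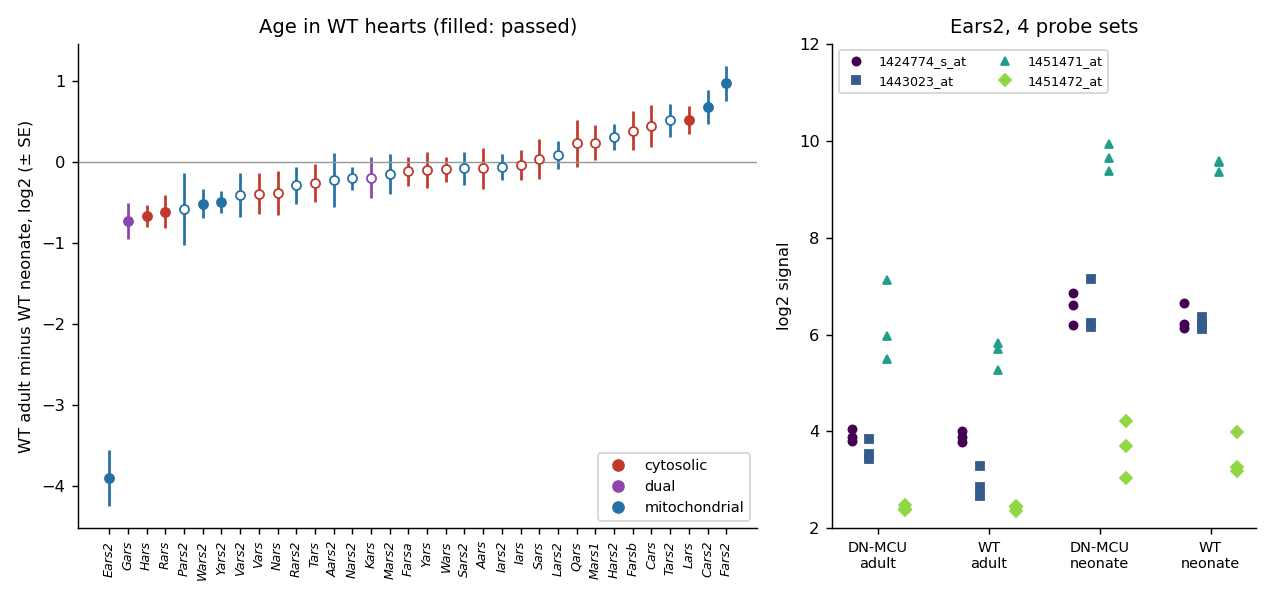
Left, WT adult minus WT neonate log2 difference ± SE for the 34 synthetases in order, filled where the test was passed; right, log2 signal of the 4 Ears2 probe sets on every array, by group. Ears2 lies at -3.90 and the other genes between -0.73 and 0.96; every adult point of an Ears2 probe set lies below every neonatal point of that probe set.

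Gars was lower in WT adults than in WT neonates by 1.66-fold (log2 difference -0.73, adjusted p = 0.0188). It was also the gene that rose most with DN-MCU in adults. The same WT adult arrays enter both differences, so the 2 are not independent. Hars, at -0.67 (SE 0.13, adjusted p = 0.00205), Rars, at -0.61, Wars2, at -0.52, and Yars2, at -0.50 (adjusted p = 0.0122), were lower in WT adults too. Fars2, the mitochondrial phenylalanyl enzyme, was higher in WT adults, with 9.99, 9.93 and 9.73, against 9.10, 8.76 and 8.90 in WT neonates (difference 0.96, SE 0.22, adjusted p = 0.00412), while a second, dimmer Fars2 probe set gave 0.31 (adjusted p = 0.623). Cars2 was higher by 0.68 (adjusted p = 0.0222) and Lars by 0.51 (adjusted p = 0.0327). With the replicate block of the neonates 6 of the 9 passed, and Lars, Rars and Wars2 did not (adjusted p = 0.0631, 0.057 and 0.0536). Without WT adult replicate 3 the count was 4, and without WT neonate replicate 3 it was 5. Ears2, Hars and Fars2 passed with each array left out. Gars missed the threshold without WT adult replicate 2 or 3 or WT neonate replicate 3, Cars2 without WT adult replicate 1 or WT neonate replicate 2, and Yars2 without WT adult replicate 3. Lars and Rars each missed it without any of 5 single arrays and Wars2 without any of 6, WT adult replicate 3 and WT neonate replicates 1 and 3 among them for all 3 genes.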

How the data were processed

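RNA of 12 whole hearts, from 500 ng each, was measured on 12 arrays in 4 groups of 3. The authors deposited log2 signals, and per the submitters' processing notes Partek was used; no source used here names the background correction or normalization, and the base was read from the range of the values. Genes were named through the platform annotation, and all 34 symbols matched RefSeq. Members and gene lists were chosen with earlier results of these data known.

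Probe sets with fewer than 3 values above the median of all values, 3.35, were left out, and 24176 of 45101 remained. limma 3.58.1 in R 4.3.3 fitted 4 group means with 1 shared spread, with Benjamini-Hochberg adjustment over all 24176 and a threshold of 0.05. The code was tested on simulated data. Every synthetase with an adjusted p under 0.05 is named, and beyond these the 3 with the smallest p and the highest and lowest difference in each comparison; others are named to account for all members. Pair gaps were added to the same table.

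Labels number the replicates in each group. They do not state pairs. Same-numbered neonatal arrays all had weak correlations above 0 (0.13, 0.22 and 0.28), so the numbers were taken to pair neonates, which is an assumption. Adult arrays had correlations of mixed sign (-0.38, 0.41 and -0.43), with that of replicate 2 above every neonatal one. The main fit left this pairing out, and the synthetase calls that changed with the replicate block of the neonates are named with their results. Alternatives covered normalization, filters, the arrays fitted, array weights, replicate blocks, each array left out and the choice of probe set. The number of arrays limits the precision. A probe set ending in _x_at or _s_at can read related transcripts.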

Additional observations from a re-analysis of the deposited data

Results flagged for a closer look

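Gars, the glycyl enzyme of both compartments, had a larger difference with DN-MCU in adults than in neonates in the fit over all arrays: the adult difference, 2.22, exceeded the neonatal difference, 0.40, by 1.82 on the log2 scale (limma interaction, adjusted p = 0.0257). Every DN-MCU array lay above every WT array at both ages. The call did not hold with the replicate block of the neonates (adjusted p = 0.0805), nor when any of 8 single arrays was left out (up to 0.0948), while the size stayed between 1.67 and 2.02 with each array left out.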

How the results depend on the processing

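Over all alternatives 521 values of named genes kept their call, 63 lost it, 8 gained it and 0 changed sign. With only the groups compared in the fit, the adult calls were 1 and the adult pair gaps 2. A stricter filter, which left 26 members, gave 5 pair gaps, a cytosolic adult median of 1.03 and a mitochondrial WT age median of 0.0042, above 0. The age-difference calls were 7 with array weights, 0 with either replicate block, 2 without _x_at and _s_at probe sets and 4 without DN-MCU adult 3 and WT adult 1. WT age calls were 5 with a replicate block within each age. Quantile normalization gave WT age medians of 0.10 (cytosolic) and -0.031 (mitochondrial), and subtraction of array medians -0.22 and -0.31; that subtraction moved the median of all probe sets to -0.20 from -0.07. The cause was not tested. With each array left out, calls ranged over 8 to 11 (adult), 8 to 9 (adult gaps), 0 to 2 (age difference) and 4 to 10 (WT age), and medians over 0.50 to 0.85 and -0.22 to 0.04 (adult cytosolic, mitochondrial), 0.22 to 0.46 and 0.11 to 0.20 (neonatal) and -0.14 to -0.03 and -0.21 to -0.10 (WT age). Neonatal calls stayed at 0 in all settings. Apart from the calls named with it, the replicate block of the neonates changed no other adult, neonatal or WT age call of a synthetase or adult pair gap; of the amino acid response genes 20 rather than 21 rose in adults. Differences of members near background, such as Vars, can be understated, which was not tested.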
